A study of Homo sapiens with 2 samples.

Results

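The 6 microRNAs described here are both arms of 3 hairpins long studied as oncogenic: miR-21-5p and miR-21-3p from hsa-mir-21, miR-221-3p and miR-221-5p from hsa-mir-221, and miR-222-3p and miR-222-5p from hsa-mir-222. They were chosen by name. All 6 were found among the 2656 mature microRNAs of a small RNA sequencing experiment, each in a single line of the table, and all 6 passed the limit for expression described below, which 191 microRNAs passed. Small RNA was sequenced from MDA-MB-231, an established human cell line of triple-negative breast cancer. One culture was transduced with an shRNA named shELOVL5, directed against the fatty acid elongase ELOVL5, and the other with the control shRNA named shLuc. There was 1 library of each, the cells were grown in the same serum-containing medium, and the labels do not say whether a clone or a mixed population was sequenced. The labels' extraction text speaks of frozen tumor material, whereas the sample labels and growth protocol describe the cultured line.

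A microRNA hairpin is cut by Drosha in the nucleus and by Dicer in the cytoplasm into a short duplex, of which one strand, the guide, is usually kept by an Argonaute protein while the other, the passenger, is mostly degraded. The guide finds target messenger RNAs mainly through its seed, bases 2 to 8. miR-21-5p is raised in many carcinomas, breast cancer among them, and is known to repress the tumour suppressor PDCD4. miR-221-3p and miR-222-3p repress the cell cycle inhibitor CDKN1B (p27) and the oestrogen receptor ESR1, and are typically abundant in breast cancer lines without that receptor.

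The sequences show why the 3p arms of miR-221 and miR-222 are treated as 1 family and miR-21 as another. RefSeq (GRCh38.p14) holds a mature sequence for 4 of the 6 members, given here 5′ to 3′ with the seed in capitals.
hsa-miR-21-5p: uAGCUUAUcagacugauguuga
hsa-miR-221-3p: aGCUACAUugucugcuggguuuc
hsa-miR-222-3p: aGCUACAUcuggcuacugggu
hsa-miR-222-5p: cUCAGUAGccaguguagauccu
The 3p arms of miR-221 and miR-222 shared all of their first 8 bases. Aligned from the 5′ end without gaps, they were identical at 11 of 21 positions and differed at every position from 9 to 17 and again at position 20. Such an alignment understates their likeness, because both hold CUGGGU towards the end but not at the same positions. Their common seed pairs with AUGUAGC in a target, and the seed of miR-21-5p pairs with AUAAGCU. The passenger arm miR-222-5p has a different seed that no other RefSeq microRNA in the table carried.

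The hairpins themselves are given 5′ to 3′ because the arm shares reported later are shares of each hairpin's counts. Capitals mark the mature arms that RefSeq lists, which are miR-21-5p in the first, miR-221-3p in the second and both arms of miR-222 in the third.
hsa-mir-21: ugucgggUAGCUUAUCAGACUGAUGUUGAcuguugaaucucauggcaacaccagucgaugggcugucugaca
hsa-mir-221: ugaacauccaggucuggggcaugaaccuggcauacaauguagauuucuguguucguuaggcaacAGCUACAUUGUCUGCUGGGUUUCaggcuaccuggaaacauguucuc
hsa-mir-222: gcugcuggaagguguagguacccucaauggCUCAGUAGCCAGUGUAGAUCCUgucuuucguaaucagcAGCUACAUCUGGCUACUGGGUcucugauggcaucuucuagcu
MIR21 lies on the plus strand at chr17:59841266-59841337 (72 bases). In GENCODE 29 it falls within VMP1, a gene of autophagosome formation, in an exon of 1 VMP1 transcript where no coding sequence or UTR is annotated. MIR221 (chrX:45746157-45746266) and MIR222 (chrX:45747015-45747124) lie on the minus strand, 110 bases each and 748 bases apart. Both fall within an intron of the long non-coding RNA gene MIR222HG, whose transcript spans 45745211 to 45770274 on chromosome X.

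After each mature microRNA was counted once, the shELOVL5 library held 6811811 microRNA counts and the shLuc library 7109272. Levels are CPM (counts per 1000000 counts) scaled with TMM factors, and a microRNA was called expressed at a mean of at least 50 CPM and 100 counts over both libraries. With 1 library per shRNA there was no replicate check and no p-value, and every interval below is a 95% interval of counting error only. The table holds no messenger RNA, so the level of ELOVL5 itself was not measured here. All 4 microRNAs listed as markers of basal or mesenchymal breast lines were expressed, with summed levels of 293648 CPM (shELOVL5) and 330083 CPM (shLuc). Most of that sum was miR-100-5p, with 215746 CPM (shELOVL5) and 248557 CPM (shLuc). miR-221-3p and miR-222-3p are themselves on that list and were also lower in shELOVL5. The remaining marker, miR-146a-5p, went the other way, with 3803 CPM in shELOVL5 and 2069 CPM in shLuc, and was named after its values were seen. The 6 epithelial markers summed to 387 CPM (shELOVL5) and 298 CPM (shLuc), with 3 of them expressed. Of the 6 blood cell markers 1 was expressed, miR-486-5p. miR-223-3p had 0 counts in both libraries, where 3 counts, taken here as the limit for 0, would be 0.435 CPM of shELOVL5 and 0.427 CPM of shLuc. The list of blood cell markers came to 331 CPM (shELOVL5) and 398 CPM (shLuc). Other blood cell markers, below the expression limit, went the other way from that sum and were named after their values were seen: miR-142-5p had 84 counts in shELOVL5 and 6 in shLuc, miR-142-3p had 45 in shELOVL5 and 2 in shLuc, and miR-451a had 6 in shELOVL5 and 2 in shLuc. Of the 4 endothelial and stromal markers 1 was expressed, miR-126-3p, and the list came to 761 CPM (shELOVL5) and 633 CPM (shLuc). None of the 4 liver and muscle markers was expressed. Below the limit, the muscle markers miR-1-3p and miR-206 went opposite ways and were named after their values were seen. miR-1-3p had 14 counts in shELOVL5 and 80 in shLuc, and miR-206 had 155 in shELOVL5 and 69 in shLuc. The part of such cell types in the results was not tested.

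The hairpins were a major fraction of all microRNA in both cultures. In shELOVL5 the 6 arms together took 22.5% of the counts (exact binomial interval 22.49 to 22.55%), and in shLuc 20.1% (20.04 to 20.10%). miR-21-5p ranked 2 in both libraries, behind miR-100-5p. miR-221-3p and miR-222-3p followed closely on each other and exchanged places: miR-221-3p ranked 5 and miR-222-3p ranked 6 in shELOVL5, whereas miR-222-3p ranked 5 and miR-221-3p ranked 6 in shLuc. The passenger arms ranked far lower, with miR-221-5p at 52 in shELOVL5 and 49 in shLuc, miR-21-3p at 113 in shELOVL5 and 119 in shLuc, and miR-222-5p at 155 in shELOVL5 and 150 in shLuc. Ligation and amplification favour some small RNA sequences over others, so the order of different microRNAs is less secure than a ratio of the same microRNA between libraries.

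**Figure D1:**
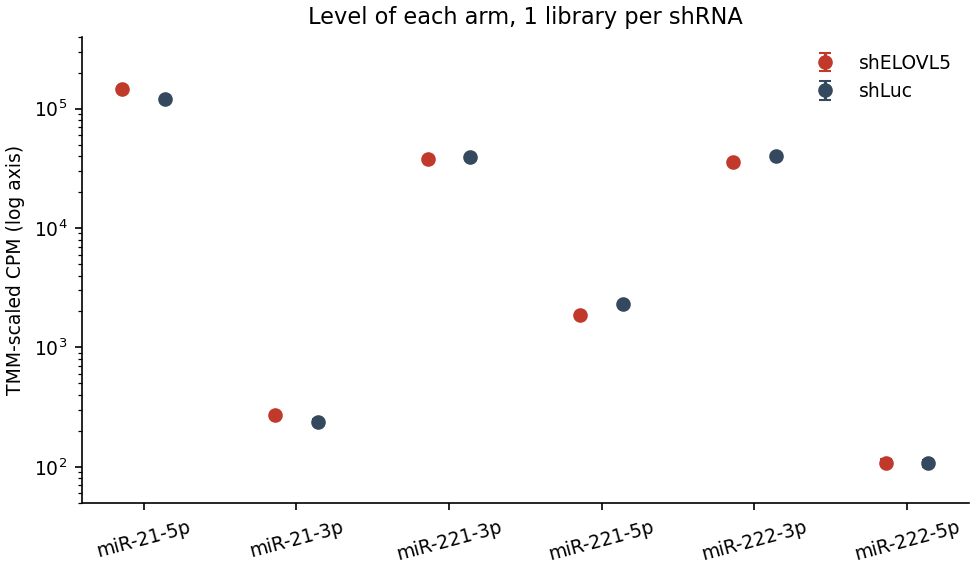
TMM-scaled CPM (log axis) of each of the 6 arms in the shELOVL5 library (left point of each pair) and the shLuc library (right point), with exact Poisson 95% intervals that are mostly smaller than the points. The 3 guide arms lie between 35916 and 146047 CPM, and the 3 passenger arms between 107 and 2302 CPM.

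The first question was whether cells carrying the shRNA against ELOVL5 held other levels of these arms than control cells. Both miR-21 arms had ratios above 1 (shELOVL5 over shLuc), and 3 of the 4 arms of miR-221 and miR-222 had ratios below 1, within 25% higher and 20% lower. The fourth, miR-222-5p, stood level. Of the 6 arms, 0 were at least 25% higher or at least 20% lower, limits that 19.9% of the 191 expressed microRNAs passed (9.95% higher and 9.95% lower). That was 19 in each direction, and with total count scaling it was 29 higher and 13 lower. The counting interval lay clear of 1 for 5 of the 6 arms, and for 73.8% of the expressed microRNAs (31.9% above 1 and 41.9% below), so that alone does not set the members apart.

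miR-21-5p, the guide, had 1007300 counts (146047 CPM) in shELOVL5, against 850628 counts (121149 CPM) in shLuc. Its ratio, shELOVL5 over shLuc, was 1.21 (1.20 to 1.21), which placed it 33 from the top among the 191. A total of 59 expressed microRNAs (30.9%) departed further from a ratio of 1, among them 16 of the 68 with at least 1000 CPM. As a share of the library it took 14.8% in shELOVL5 and 12.0% in shLuc, the widest gap in share among the 6 arms. miR-21-3p, the passenger strand, had 1860 counts (269.7 CPM) in shELOVL5, against 1672 counts (238 CPM) in shLuc. Its ratio was 1.13 (1.06 to 1.21), on the same side of 1 as that of its guide. The intervals of the miR-21 arms overlapped.

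miR-221-3p had 263353 counts (38183 CPM) in shELOVL5, against 275675 counts (39262 CPM) in shLuc. With a ratio of 0.973 (0.967 to 0.978) it was close to the median of all expressed microRNAs, 0.978, and 85.9% of them departed further from 1. Its passenger arm, miR-221-5p, had 12891 counts (1869 CPM) in shELOVL5, against 16162 counts (2302 CPM) in shLuc. That arm had the lowest ratio of the 6, 0.812 (0.793 to 0.831), or 1.23-fold lower, and 24.6% of expressed microRNAs departed further from 1. The interval of miR-221-5p lay wholly below that of miR-221-3p. The DESeq2 size factors were 1 for both libraries, which amounts to unscaled counts. With these, miR-221-5p was just past 20% lower, at a ratio of 0.798.

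miR-222-3p had 247715 counts (35916 CPM) in shELOVL5, against 282222 counts (40195 CPM) in shLuc. The ratio was 0.894 (0.889 to 0.898), or 1.12-fold lower, a departure that 54.5% of expressed microRNAs exceeded. miR-222-5p, the least abundant of the 6, had 748 counts (108 CPM) in shELOVL5, against 751 counts (107 CPM) in shLuc. Its ratio of 1.01 (0.915 to 1.12) had an interval that included 1, and it turned to 0.996 under DESeq2 size factors. A difference below about 1.1-fold in this arm was not detectable at its depth.

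**Figure D2:**
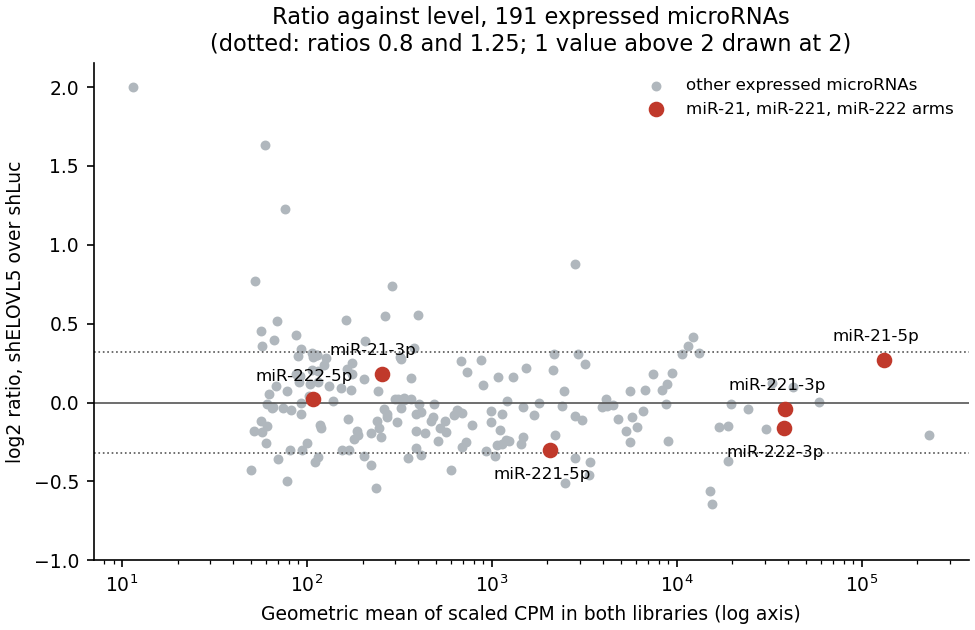
Log2 ratio (shELOVL5 over shLuc) of the 191 expressed microRNAs against the geometric mean of their scaled CPM in both libraries (log axis), with the 6 arms in red and 25% higher and 20% lower as dotted lines; 1 value above 2 is drawn at 2. All 6 arms lie inside the dotted lines, with miR-21-5p at 0.27 and miR-221-5p at -0.30.

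The counting intervals of the abundant arms are narrower than the uncertainty of the scaling. Scaling by total counts shifted every log2 ratio by 0.04, and DESeq2 size factors by -0.03. As both size factors were 1, the latter are ratios of unscaled counts, with no correction for depth. With total counts miR-21-5p stood at 1.24, miR-221-3p at 0.997 and miR-222-3p at 0.916, and with DESeq2 size factors at 1.18, 0.955 and 0.878 in the same order. These 3 guide arms stayed on their side of 1 under both scalings, but with total counts the interval of miR-221-3p (0.992 to 1.002) included 1, which left 4 of the 6 arms clear of it. Factors computed without the 6 arms, which removes miR-21-5p from the totals it weighs on, gave 1.20 for miR-21-5p, 0.971 for miR-221-3p and 0.892 for miR-222-3p.

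**Figure D3:**
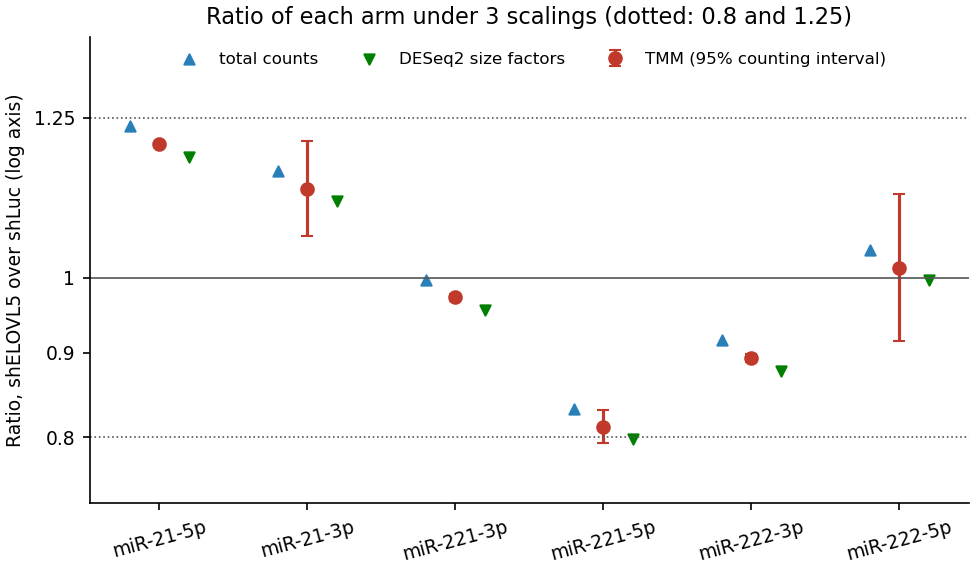
Ratio of each arm (shELOVL5 over shLuc, log axis) with TMM factors and its 95% counting interval (red), with total count scaling (blue) and with DESeq2 size factors (green). Both size factors were 1, so the green values are ratios of unscaled counts. Dotted lines mark 25% higher and 20% lower. miR-222-5p is the arm that crosses 1, and miR-221-5p the arm that crosses a dotted line, at 0.798 under DESeq2 size factors.

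The second question concerned the balance of guide and passenger strands, which does not depend on scaling because both arms come from the same library. In the miR-21 hairpin the 3p arm took 0.184% of the hairpin's counts in shELOVL5 (exact binomial interval 0.176 to 0.193%) and 0.196% in shLuc (0.187 to 0.206%). The ratio of minor to major arm, shELOVL5 over shLuc, was 0.939, and its exact conditional interval of 0.879 to 1.004 included 1. In the miR-221 hairpin the 5p arm took 4.67% in shELOVL5 (4.59 to 4.75%) and 5.54% in shLuc (5.46 to 5.62%), a ratio of 0.835 (0.815 to 0.855). In the miR-222 hairpin the 5p arm took 0.301% in shELOVL5 (0.280 to 0.323%) and 0.265% in shLuc (0.247 to 0.285%), a ratio of 1.13 (1.02 to 1.26). The neighbouring hairpins thus went opposite ways in arm balance, miR-221 towards its guide and miR-222 slightly towards its passenger in shELOVL5.

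How these shifts compare with those of other hairpins depends on the hairpins chosen. Over the 185 hairpins with both arms and at least 100 counts, 46.5% had a minor to major ratio at least 25% higher (27.0%) or at least 20% lower (19.5%), and 0 of the 3 did. The interval lay clear of 1 in 29.7% of the 185 (18.4% above and 11.4% below), and in 2 of the 3. A total of 100 hairpins shifted further than miR-221, 129 further than miR-222 and 153 further than miR-21. Many of the 185 have few passenger counts. The log2 ratio of miR-221, -0.26, compares with a median size of 0.30 over the 185, 0.24 over the 125 with at least 1000 counts and 0.20 over the 17 others among the 20 with most counts. Of those 17, 6 had a ratio at least 25% higher in shELOVL5 and 0 had one at least 20% lower, and miR-221 had the lowest ratio of the 20.

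In counts, the hairpins themselves differed far more in arm balance than the cultures did. A passenger share sets different sequences against each other, so preferences of ligation and amplification enter its level and rank. Their part in the differences between hairpins was not tested. By passenger share averaged over both libraries, miR-21 ranked 24 of 185 from the lowest, miR-222 ranked 35 and miR-221 ranked 108. The median passenger share of the 185 was 3.97% in shELOVL5 and 4.05% in shLuc. Among the 17 other hairpins of the top 20 it was 0.172% in shELOVL5 and 0.140% in shLuc, close to the share in miR-21, below that in miR-222 and far below that in miR-221. Several of these 17, such as hsa-let-7a-1 and hsa-let-7a-2, share a guide that entered each with its whole count, which lowers their shares. The 3 member guides have 1 line each, so this placement and the ranks are not like for like. Guides of hsa-let-7f-1 and hsa-mir-181b-1, named next, are shared as well. The hairpins nearest in passenger share were hsa-let-7f-1 to miR-21 (0.186% in shELOVL5 and 0.207% in shLuc), hsa-mir-532 to miR-221 (5.08% in shELOVL5 and 5.13% in shLuc) and hsa-mir-181b-1 to miR-222 (0.249% in shELOVL5 and 0.317% in shLuc).

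**Figure D4:**
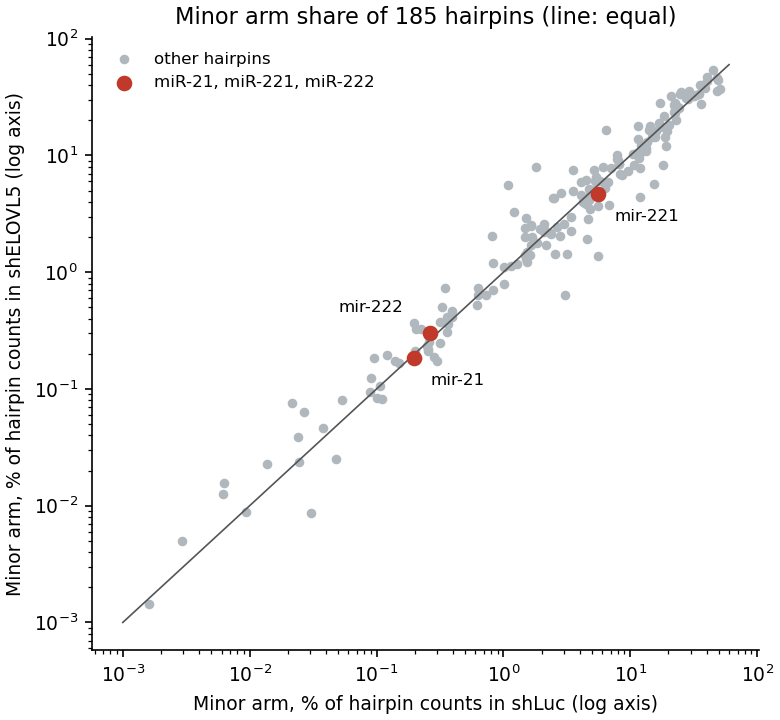
Minor arm as a percentage of the hairpin's counts in shELOVL5 (vertical, log axis) and in shLuc (horizontal, log axis) for 185 hairpins, with the line of equal shares and the 3 hairpins in red. miR-21 and miR-222 sit below 1% and miR-221 near 5%, all close to the line.

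The third comparison set miR-221 against miR-222, which lie in the same host transcript. There were 1.06 counts of miR-221-3p for each count of miR-222-3p in shELOVL5 (1.06 to 1.07) and 0.977 in shLuc (0.972 to 0.982). The arm with more counts was thus a different one in each library. Ligation and amplification may favour either sequence, so which was more abundant in the cells is not settled by these counts. The ratio of these quotients was 1.09 (1.080 to 1.097). Between the passenger arms the quotient of miR-221-5p to miR-222-5p was 17.2 in shELOVL5 (16.0 to 18.6) and 21.5 in shLuc (20.0 to 23.2), a ratio of 0.801 (0.721 to 0.890). The guide arms therefore shifted towards miR-221 and the passenger arms towards miR-222 in shELOVL5. These quotients use the same counts as the arm balances above and are not independent of them. Summed over both arms, the miR-221 hairpin had a ratio of 0.964 (0.959 to 0.969) and the miR-222 hairpin 0.894 (0.889 to 0.899).

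Grouped by seed, the 3 guide arms formed the pools ranked 3 and 4 in both libraries, while the passenger arm miR-222-5p was alone in a pool ranked 105 in shELOVL5 and 104 in shLuc. The other passenger arms, without a RefSeq mature sequence, entered no pool. Sequences were matched for 2367 of the 2656 mature microRNAs and 174 of the 191 expressed ones, which held 96.1% of the shELOVL5 library and 95.3% of the shLuc library, so the ranks leave out the rest. The miR-21-5p seed rested on that microRNA almost alone. The other carrier in the table, hsa-miR-590-5p from chromosome 7, had 3 counts in shELOVL5 and 5 in shLuc and was named after its values were seen. Seed included, it was identical to miR-21-5p at 8 of 22 positions in an ungapped alignment.
hsa-miR-590-5p: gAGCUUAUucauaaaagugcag
The seed shared by miR-221-3p and miR-222-3p had 511068 counts (7.50%) in shELOVL5, against 557897 counts (7.85%) in shLuc, a ratio of 0.933 (0.929 to 0.936). For each count of that pool there were 1.97 counts of miR-21-5p in shELOVL5 (1.96 to 1.98) and 1.52 in shLuc (1.52 to 1.53), a ratio of 1.29 (1.29 to 1.30) that is independent of the scaling. Larger pools were the miR-100-5p seed, with 23.6% in shELOVL5 and 26.9% in shLuc, and the let-7 seed, with 17.7% in shELOVL5 and 16.8% in shLuc.

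**Figure D5:**
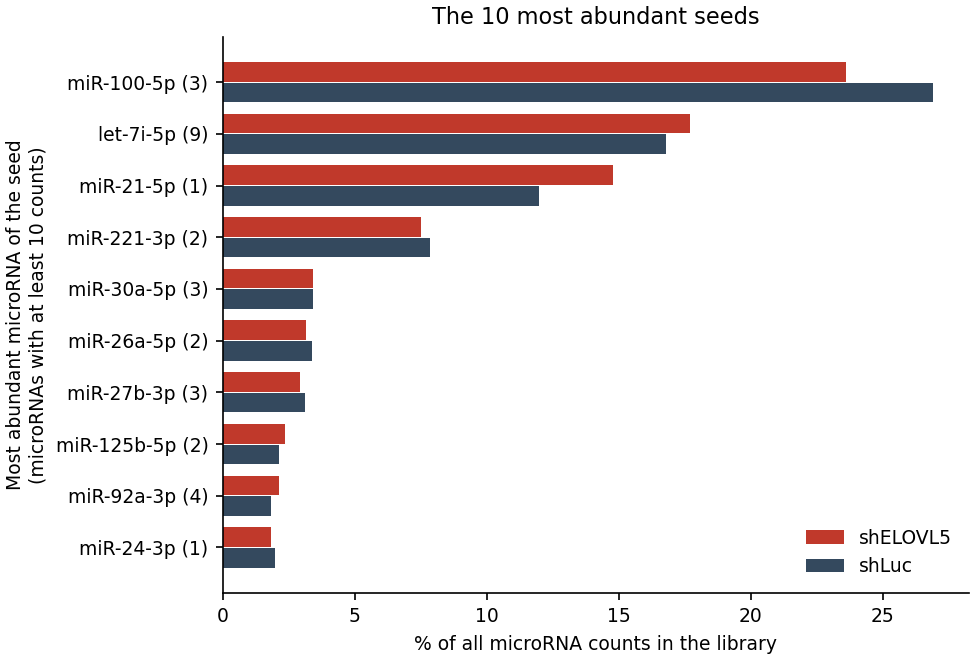
Share of all microRNA counts (percent) taken by the 10 most abundant seeds in shELOVL5 (upper bar) and shLuc (lower bar), each labelled by its most abundant microRNA, with the number of microRNAs of at least 10 counts in brackets. The miR-21-5p seed is carried by 1 such microRNA and reaches 14.8% in shELOVL5 and 12.0% in shLuc.

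The microRNAs most like each member in level over the 2 libraries were found by the distance between their log2 CPM. miR-221-3p and miR-222-3p were each other's nearest, at a distance of 0.09. miR-21-5p had no close neighbour, the nearest being miR-100-5p at 1.18, with 215746 CPM in shELOVL5 and 248557 CPM in shLuc, which stood on the other side of 1 at a ratio of 0.868. The nearest to the passenger arms were miR-345-5p to miR-21-3p, miR-941 to miR-221-5p and miR-425-3p to miR-222-5p, at distances of 0.12, 0.13 and 0.09. With 2 libraries this likeness is mostly one of abundance.

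Other microRNAs known as oncogenic or as promoting metastasis in breast and other carcinomas were read from a list of 30, of which 22 were expressed. Their median ratio was 1.13, against 0.978 for all expressed microRNAs and 0.993 for the 6 arms. The entries are not independent. miR-17-5p, miR-18a-5p, miR-19b-3p, miR-20a-5p and miR-92a-3p each have a precursor in the miR-17-92 cluster, with ratios of 1.18 to 1.33. Where a mature microRNA has other precursors too, its counts do not tell them apart. miR-182-5p, miR-183-5p and miR-96-5p form another cluster, with ratios of 0.703 to 0.921. Clustered entries did not always go the same way. In the cluster of miR-106b-5p, miR-93-5p and miR-25-3p the ratios were 1.22, 0.938 and 0.897 in that order. miR-23a-3p stood at 1.05, beside 1.24 for miR-27a-3p of the same cluster. These clusters were named after their values were seen. Of the 22, 5 had ratios at least 25% higher and 2 at least 20% lower, beside the background of 9.95% in each direction. None was past 1.5-fold, which 3.14% of expressed microRNAs passed upwards and 0.524% downwards. With total count scaling the 5 became 9. The most abundant was miR-92a-3p, with 97473 counts in shELOVL5 and 74505 in shLuc, a ratio of 1.33 (1.32 to 1.34). It was followed by miR-27a-3p at 1.24 (1.226 to 1.251), miR-103a-3p at 1.14 (1.13 to 1.15), miR-181a-5p at 1.06 (1.05 to 1.07) and miR-191-5p at 0.965 (0.953 to 0.978). Named after their values were seen, the others past those limits were the hypoxia-induced miR-210-3p at 1.47, miR-135b-5p at 1.43, miR-106a-5p at 1.35 and miR-19b-3p at 1.28, which were higher, and miR-183-5p at 0.703 and miR-182-5p at 0.771, which were lower. By its ratio of 1.21, miR-21-5p lay between miR-103a-3p and miR-27a-3p. miR-222-3p, at 0.894, lay close to miR-25-3p, at 0.897, which was also named after its value was seen.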

How the data were processed

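The deposited values were raw counts per precursor and mature microRNA, with no normalization by the authors. The submitters' processing notes name Bowtie 1.1.1, cutadapt 2.10 and FastQC 0.11.9. How reads were counted, with which annotation release and mismatches, and where several microRNAs match, is not given in the sources used here. Per the labels' protocols, total RNA was made into NEBNext small RNA libraries and read on an Illumina NextSeq. No molecular identifiers are described, so intervals and zero-count limits cover counting error alone, not PCR copies, scaling or variation between cultures.

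Of 2656 mature microRNAs, 166 were listed under more than 1 precursor and the highest value was kept; the 6 members have 1 line each. Counts were scaled with TMM factors (edgeR 4.0.16, R 4.3.3), 1.01 for shELOVL5 and 0.988 for shLuc. Intervals are 95% intervals: Clopper-Pearson for shares and ratios, Poisson for levels, exact conditional for ratios of arms (SciPy 1.17.1 and R). The arm comparison used hairpins with at least 100 counts in all and 1 count per library on the minor arm; a mature microRNA with several hairpins entered each with its whole count. The members, lists, the limits of 25% higher and 20% lower (equal on a log scale) and naming rules were chosen with earlier results of these data known. Named were the 6 members, carriers of their seeds with at least 10 counts, the nearest microRNA or hairpin, and from the oncogenic list the 5 most abundant and any past 1.5-fold. Sequences are from RefSeq (GRCh38.p14) and host genes from GENCODE 29. On simulated counts for shELOVL5 against shLuc (422 microRNAs, 189 expressed), these limits called 43 of 43 raised 1.5-fold and 36 of 36 lowered 1.5-fold. They called 0 of 110 unchanged, and 92.2% of intervals held the true ratio, below the 95% they are named for. The simulated counts had Poisson error only and a fold beyond the limits. They check the calculation and say nothing about variation between cultures or PCR copies. Alternatives were other scalings (DESeq2 1.42.0 among them), the sum over precursor rows, 5 CPM added, and other limits.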

Additional observations from a re-analysis of the deposited data

How the results depend on the processing

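No paired analysis was possible because neither shRNA had a second library, and no library could be left out. Ratios beyond the counting interval arose for 4 arms. With total count scaling they were 1.24 for miR-21-5p, 0.997 for miR-221-3p, 0.832 for miR-221-5p and 0.916 for miR-222-3p. With DESeq2 size factors they were 1.18 for miR-21-5p, 0.955 for miR-221-3p and 0.878 for miR-222-3p. Summing over precursor rows gave 1.20 for miR-21-5p. Such scalings move every ratio by a constant. The DESeq2 size factors were 1 and 1, which amounts to unscaled counts. The arm and miR-221 to miR-222 ratios do not depend on scaling and kept their values with summed rows. The 19 expressed microRNAs at least 25% higher became 49 of 313 with a mean of at least 10 CPM, 3 of 68 at 1000 CPM, 298 of 1024 with 1 count in each library, and 29 with total count scaling. The 19 at least 20% lower became 31, 8 and 255 under those 3 limits, and 13 with total count scaling; DESeq2 size factors gave 18 higher and 25 lower. The 86 hairpins past these limits in arm ratio became 44 of 125 with at least 1000 counts. The number of microRNAs and hairpins examined differs between these limits by construction. Depth limits miR-222-5p most, and no setting replaces replicate libraries.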
